A study of Mus musculus with 108 samples.

Results

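The genes described here encode the proteasome, the protease that degrades ubiquitin-tagged proteins, in mouse liver. They were found as every gene symbol that starts with Psma, Psmb, Psmc, Psmd, Psme or Psmg and a digit, with the transcript of the highest mean level taken for each symbol. This gave 49 symbols of 25124, and 48 of them encode subunits, activators or assembly factors of the proteasome. The remaining one, Psmc3ip, shares only its name and encodes a meiotic recombination factor. A gene was tested where its mean level was at least 10 in its table, which left 46 genes in the wild-type table, 48 in the Errg-Cre table and 47 in the Esrrg LKO table.

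The RNA came from livers of male mice, in 108 libraries that form 6 sets of 18, each with 3 replicates at zeitgeber time (ZT, counted in hours from lights on) 2, 6, 10, 14, 18 and 22. The wild-type sets were C57BL/6J (B6) and 129S1/SvImJ (129) mice on a high fat and sucrose diet (D12492i, HFD) or on normal chow. The Errg-Cre set had a 129 strain label and the Esrrg LKO set, a hepatocyte-specific knockout of the nuclear receptor gene Esrrg, a B6 title with a mixed strain label, both on HFD. The titles of the Esrrg LKO set read diet-induced obesity where those of the Errg-Cre set read HFD. The labels number the replicates without stating that they were separate animals, so p-values measure only the spread between these samples. Neither the driver of the Cre nor the age of the mice is given in the sources used here.

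The core particle of the proteasome is a barrel of alpha rings, which gate the entry, and beta rings, which hold the cutting sites. Psmb5, Psmb6 and Psmb7 carry these sites in most cells. In cells exposed to interferon gamma, Psmb8, Psmb9 and Psmb10 take their places in new particles, which are then called immunoproteasomes and generate peptides for presentation on MHC class I molecules. Regulatory particles at the ends recognise ubiquitin chains, remove them and unfold the substrate with a ring of ATPases (the Psmc genes), while the Psmd genes encode most of the other regulatory subunits. Alternative caps are encoded by Psme1 and Psme2, which are interferon-inducible, by Psme3 and by Psme4. Liver parenchyma makes mainly the constitutive form, and Kupffer cells and other immune cells of the liver carry more of the immunoproteasome.

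Psmb8 and Psmb9 lie in the MHC region of chromosome 17. The promoters of the 3 immunoproteasome genes and of 2 of their constitutive counterparts are shown because the results turn on these genes. The sequences are from RefSeq on GRCm38.p6 and span 250 bases before to 50 bases after the gene start, which is the start of the transcript in the deposited table for all of them. Capitals mark matches to TTCNNNGAA, the palindrome bound by STAT factors, and to TGACNNNGC, the core bound by the Nfe2 family, on either strand.
Psmb8, chr17:34197945-34198244, plus strand: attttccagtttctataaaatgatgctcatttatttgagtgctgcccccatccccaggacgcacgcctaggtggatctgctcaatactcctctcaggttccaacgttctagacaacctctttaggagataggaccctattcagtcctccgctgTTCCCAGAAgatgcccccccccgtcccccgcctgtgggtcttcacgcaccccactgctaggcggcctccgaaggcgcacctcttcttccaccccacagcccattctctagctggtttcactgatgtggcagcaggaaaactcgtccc
Psmb9, chr17:34187281-34187580, minus strand: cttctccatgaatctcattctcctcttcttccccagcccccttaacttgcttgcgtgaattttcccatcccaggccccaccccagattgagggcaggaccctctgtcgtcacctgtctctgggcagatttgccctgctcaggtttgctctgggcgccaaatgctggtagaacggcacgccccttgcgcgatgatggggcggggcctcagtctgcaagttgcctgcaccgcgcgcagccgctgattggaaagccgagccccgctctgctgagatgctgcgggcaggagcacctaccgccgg
Psmb10, chr8:105938343-105938642, minus strand: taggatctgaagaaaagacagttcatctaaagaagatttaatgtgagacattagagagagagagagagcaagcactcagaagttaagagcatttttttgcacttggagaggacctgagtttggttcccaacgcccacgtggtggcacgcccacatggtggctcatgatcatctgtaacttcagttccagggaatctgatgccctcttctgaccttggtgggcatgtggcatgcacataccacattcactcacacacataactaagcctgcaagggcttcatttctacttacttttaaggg
Psmb5, chr14:54617946-54618245, minus strand: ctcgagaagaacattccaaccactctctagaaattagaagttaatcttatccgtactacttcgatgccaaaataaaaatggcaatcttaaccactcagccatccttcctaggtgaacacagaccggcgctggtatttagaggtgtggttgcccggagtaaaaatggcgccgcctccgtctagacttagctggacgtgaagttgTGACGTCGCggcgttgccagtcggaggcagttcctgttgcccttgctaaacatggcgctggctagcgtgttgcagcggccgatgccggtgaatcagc
Psmb6, chr11:70525107-70525406, plus strand: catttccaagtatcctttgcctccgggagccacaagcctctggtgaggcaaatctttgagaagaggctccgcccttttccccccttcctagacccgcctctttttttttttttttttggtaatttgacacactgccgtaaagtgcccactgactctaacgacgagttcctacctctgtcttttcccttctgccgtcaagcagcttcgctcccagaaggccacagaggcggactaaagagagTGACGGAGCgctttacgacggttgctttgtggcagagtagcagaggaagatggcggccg
Entries were found for 41 of the 49 symbols. The STAT palindrome was present once in the Psmb8 promoter, 97 to 89 bases before the start, and in 3 of the 41 promoters, against 8.3% of 32851 promoters in RefSeq. The TGACNNNGC core was present in the Psmb5 and Psmb6 promoters and in 6 of the 41, against 12.4% of all promoters. A core of the interferon response element, GAAA followed by any 2 bases and GAAA, was searched for in the same way and was found in 5 of the 41, those of Psmb3, Psmd4, Psmd9, Psme1 and Psmg4, against 3.44% of all. None of the 3 motifs overlapped another in the 5 sequences shown, and the matches are letters only.

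Values are read numbers per transcript after quantile normalisation, which gives all libraries in a table an equal total and hides their depth. Several libraries differed from the rest. In B6 chow ZT14 replicate 3, 129 chow ZT22 replicate 3 and B6 HFD ZT6 replicate 1, 14.8%, 6.95% and 3.25% of the tested genes were below 1. In Errg-Cre ZT6 and ZT10 replicate 3 and in B6 HFD ZT22 replicate 3 the clock genes Arntl and Dbp were at levels unlike those of the other replicates of the time, and the last of these also had a summed level of 16119 over 6 neutrophil markers, against at most 22.98 in the other B6 HFD libraries. In Esrrg LKO ZT14 replicate 1 summed Kupffer cell and macrophage markers reached 20626 and neutrophil markers 839, against at most 5334 and 129.6 in the other libraries of that set. A small RNA locus, Mir6236, ranged from 915 to 91012 in B6 HFD and from 32.8 to 1171 in B6 chow. Within 129 chow it was above 30000 in 8 libraries, all from ZT14 to ZT22, and below 4000 in the other 10. These libraries were noticed in the data. For the proteasome genes, results are given below without these libraries or with the Mir6236 level as a covariate where that changes a call named here, and the lists of other genes were refitted only with the GC correction and the Mir6236 covariate.

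Per length of transcript, Psmb7 had the highest mean level of the 49 genes over the wild-type libraries (727 per kb), followed by Psma4 (639 per kb) and Psmb1 (579.6 per kb). The immunoproteasome genes were far lower, at 55.4 per kb for Psmb8, 31.2 per kb for Psmb10 and 30.0 per kb for Psmb9. Psma8, an alpha subunit known from testis, was at 7.73 per kb. Psmb11, the thymus-specific beta subunit, was listed at 0 in most libraries of every set and reached at most 2.2 in any of them. Psmb11, Psmc3ip and Psme2b, a copy related to Psme2, did not pass the filter in the wild-type table, Psmb11 did not pass in the Errg-Cre table, and Psmb11 and Psma8 did not pass in the Esrrg LKO table. Levels of Psme2 are uncertain to the extent that reads were shared with its copies. Psma3 shares 4263 bases with 3110056K07Rik on the opposite strand, and Psmd1 spans Htr2b on the opposite strand. The sources used here do not say whether counting used strand.

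The first comparison asked how the HFD changed proteasome transcripts in B6 liver. All 3 immunoproteasome genes rose on HFD, together with 6 of the 7 constitutive beta subunits, while 5 of the 8 alpha subunits and the caps Psme3 and Psme4 fell. Of the 46 genes 19 rose and 18 fell (limma, adjusted p below 0.05 over all genes), and 9 did not pass. Of the 37 calls 25 had the same sign at all 6 times. At ZT22 the 6 constitutive beta subunits had differences from only -0.19 log2 for Psmb2 to 0.23 log2 for Psmb6. Psmb8, Psmb9 and Psmb10 had 1.38, 0.82 and 0.65 log2 at that time. The background was high, since 27.5% of all 11286 genes rose and 32.7% fell. The median diet effect of the 46 genes was -0.10 log2, against -0.06 log2 over all genes.

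Psmb8, the immunoproteasome counterpart of Psmb5, had a lowest, median and highest level of 67.0, 132 and 180.3 in B6 HFD and of 8.4, 45.4 and 87.6 in B6 chow. All but 1 of the 18 HFD libraries lay above every chow library. The difference was 1.61 ± 0.16 log2 (SE, limma adjusted p = 2.7e-12) and its sign was shared by all 6 times. Psmb10, the counterpart of Psmb7, had 42.3, 61.8 and 115 in B6 HFD and 0, 25.8 and 54.6 in B6 chow, a difference of 1.499 ± 0.26 log2 (limma adjusted p = 2.7e-06). For Psmb9, the counterpart of Psmb6, these levels were 22.98, 37.3 and 62.2 in B6 HFD and 8.13, 19.5 and 29.1 in B6 chow, a difference of 1.12 ± 0.24 log2 (limma adjusted p = 0.0001). The groups overlapped for Psmb10, where 13 HFD libraries lay above all chow libraries, and for Psmb9, where 15 did.

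Of the constitutive catalytic subunits, Psmb6, with the caspase-like site, had 329, 469 and 739 in B6 HFD and 99.9, 225 and 390.2 in B6 chow, and rose by 1.101 ± 0.14 log2. Psmb5, with the chymotrypsin-like site, had 58.6, 178 and 304 in B6 HFD and 29.8, 84.4 and 215 in B6 chow, and rose by 0.96 ± 0.19 log2. Psmb7, with the trypsin-like site, went the other way, with 484, 699.5 and 802 in B6 HFD and 485, 793 and 910.3 in B6 chow, a difference of -0.18 ± 0.07 log2 (limma adjusted p = 0.022). Its call was lost when B6 chow ZT14 replicate 1 or B6 HFD ZT6 replicate 1 was left out (-0.15 and -0.14 log2). The structural subunit Psmb3 rose most of the 7, by 1.23 ± 0.13 log2, and Psmb2, Psmb4 and Psmb1 rose by 0.50, 0.37 and 0.19 log2. The ratio of immunoproteasome to constitutive level per length was below 1 in every wild-type B6 library: for Psmb8 over Psmb5 its lowest, median and highest values were 0.368, 0.486 and 0.815 in B6 HFD and 0.179, 0.329 and 0.884 in B6 chow. For Psmb10 over Psmb7 they were 0.0505, 0.0718 and 0.136 in B6 HFD and 0, 0.0254 and 0.0528 in B6 chow, and for Psmb9 over Psmb6 the medians were 0.0949 in B6 HFD and 0.0873 in B6 chow. In 129 the median of Psmb8 over Psmb5 was 0.532 on HFD and 0.447 on chow, where it reached 1.10. The 129 medians were 0.0338 and 0.0372 for Psmb10 over Psmb7 and 0.0824 and 0.0499 for Psmb9 over Psmb6. In Esrrg LKO and Errg-Cre, each in its own table, the medians of Psmb8 over Psmb5 were 1.003 and 0.401. Those of Psmb10 over Psmb7 were 0.218 and 0.0745, and those of Psmb9 over Psmb6 were 0.181 and 0.0661. The ratios of these 2 sets were not tested against wild type.

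**Figure D1:**
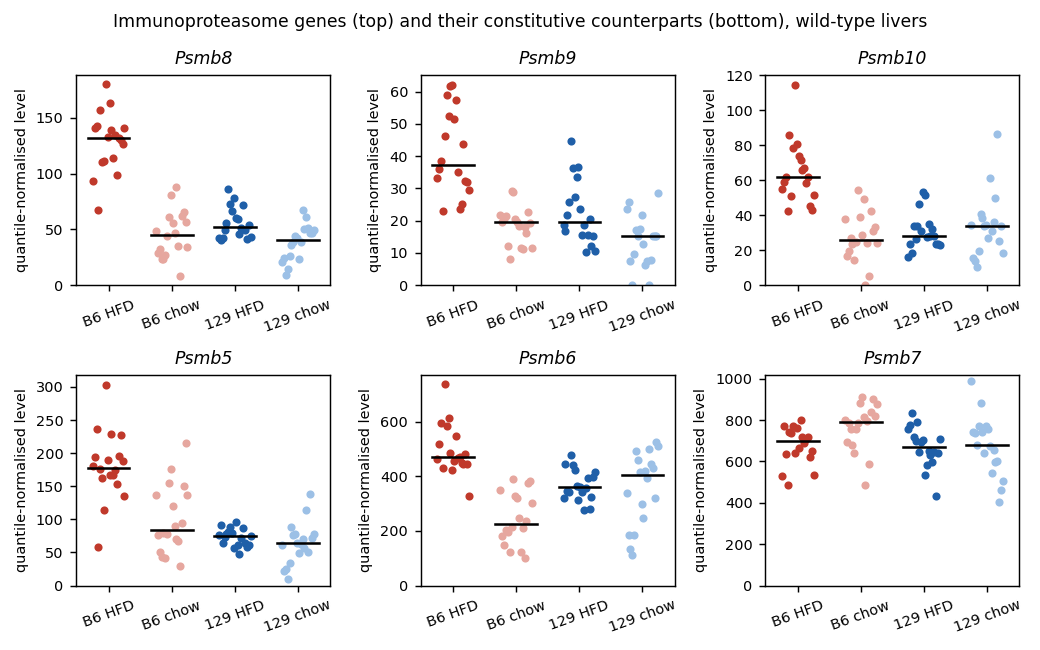
Quantile-normalised levels of Psmb8, Psmb9 and Psmb10 (top) and of Psmb5, Psmb6 and Psmb7 (bottom) in the 4 wild-type sets, with 1 point per library (18 per set) and a line at the median. The B6 HFD points of Psmb8 have a median of 132, above the medians of 45.4 in B6 chow, 52.6 in 129 HFD and 40.8 in 129 chow, while Psmb7 overlaps across all sets.

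Among the alpha subunits Psma7 rose by 0.93 ± 0.14 log2, and Psma6, Psma3, Psma1, Psma4 and Psma8 fell. The fall of Psma6 separated the groups without overlap, at 295, 463 and 541 in B6 HFD and 551, 709 and 881 in B6 chow (-0.60 ± 0.07 log2, limma adjusted p = 4.6e-10). Psma8 was low in both, with medians of 3.70 in B6 HFD and 8.93 in B6 chow, and its call (-0.88 ± 0.36 log2) was lost in 6 of the fits that each left out 1 library, at -0.82 to -0.79 log2. Of the regulatory ATPases, Psmc3 rose by 1.03 ± 0.12 log2 and Psmc4 by 0.29 log2, while Psmc6 fell by 0.35 and Psmc2 by 0.30 on the log2 scale. Of the other regulatory subunits, Psmd3, Psmd4, Psmd8 and Psmd13 rose by 0.98, 0.95, 0.43 and 0.39 log2, Psmd4 being a ubiquitin receptor. Psmd12, Psmd7, Psmd6, Psmd11 and Psmd1 fell by 0.43, 0.28, 0.28, 0.27 and 0.19 on the log2 scale, Psmd1 being the large scaffold subunit. The call of Psmd7 was lost in 4 of the fits that each left out 1 library.

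Psme3, the cap found mainly in the nucleus, fell most of the caps and again without overlap. It had 71.4, 149 and 199 in B6 HFD and 225, 253 and 300.5 in B6 chow (-0.86 ± 0.07 log2, limma adjusted p = 5.3e-14). Psma6 and Psme3 were the only 2 of the 46 genes without overlap, against 0.735% of all tested genes. Psme4, a large single-chain cap, fell by 0.50 ± 0.07 log2, Psme2 rose by 0.34 ± 0.09 log2, and Psme1 had a difference of -0.05 ± 0.06 log2 (limma adjusted p = 0.48). Of the assembly chaperones Psmg3 rose by 1.59 ± 0.31 log2 (medians of 26.3 in B6 HFD and 9.16 in B6 chow) and Psmd9 by 0.42 log2, while Psmd10, Psmg1 and Psmd5 fell by 0.48, 0.27 and 0.19 on the log2 scale.

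**Figure D2:**
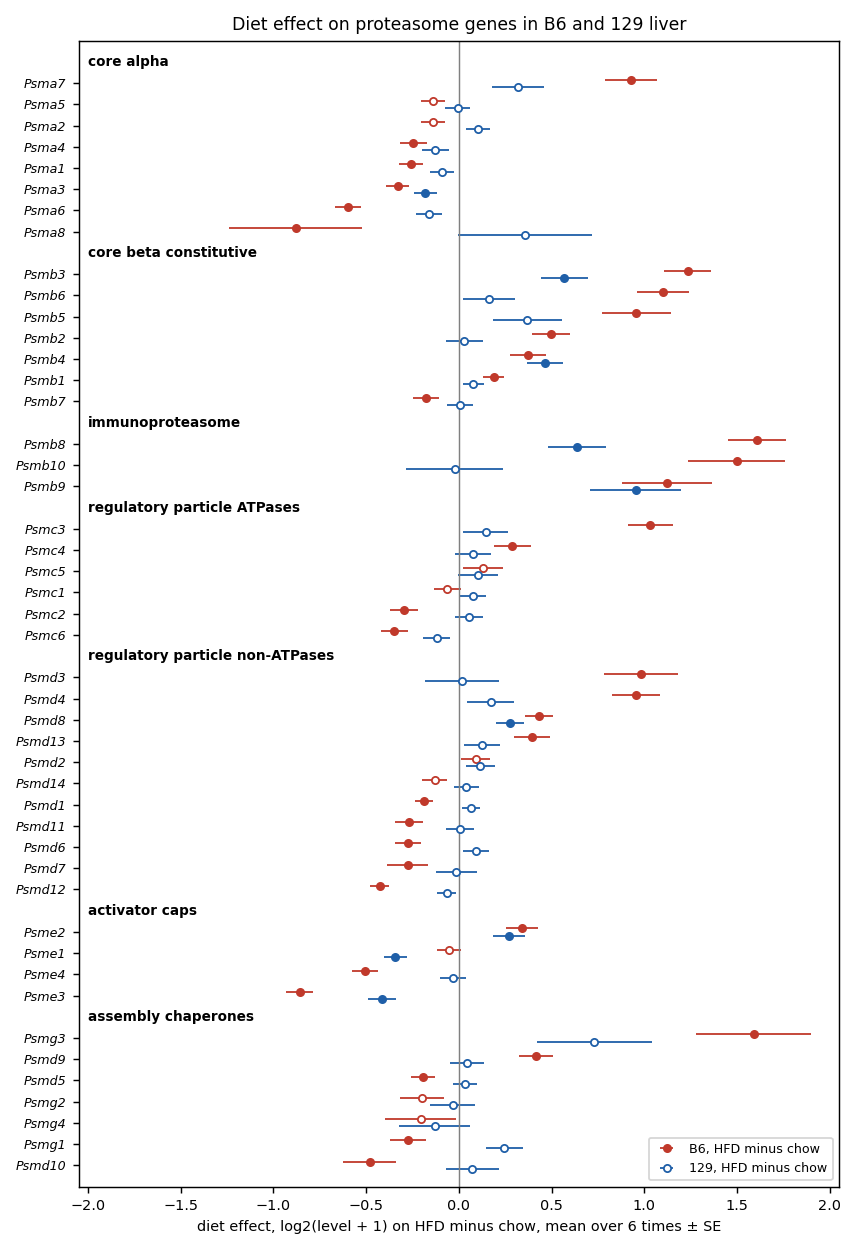
Diet effect (log2 of level + 1, HFD minus chow, mean over 6 times ± SE) of the 46 tested genes by role, in B6 (red) and 129 (blue), with filled points where the limma adjusted p was below 0.05. In B6 all 3 immunoproteasome genes and 6 of 7 constitutive beta subunits lie to the right of 0 with filled points, and in 129 most points are open and near 0.

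GC content of the transcripts moved with these changes. The 19 genes that rose in B6 had a median GC content of 53.8% (44.7% to 58.3%) and the 18 that fell one of 45.9% (37.0% to 51.5%). Across the 46 genes Pearson's r between GC content and the diet effect was 0.74, a description over genes that share the same libraries. With a trend on GC content and length removed from each library, 18 genes rose and 7 fell, and r was 0.41. The median effect over all genes then was 0.06 log2, a shift of more than 0.1 log2, and all calls split into 3160 higher and 2171 lower, against 3104 and 3687 without the correction. Of the 37 calls 21 were kept, 16 higher and 5 lower, with Psmb8 at 1.19, Psmb10 at 1.02, Psmb3 at 0.92, Psmb9 at 0.70 and Psme3 at -0.79 log2. With the Mir6236 level as a covariate 3 of the 37 calls were kept, Psmb8 (0.93 log2, limma adjusted p = 0.0198), Psmd11 and Psme3 (-0.73 log2, limma adjusted p = 0.000142), and Psmb10 had 0.19 and Psmb9 0.90 log2 without passing. That fit called 1 gene higher and 3 lower. Diet and Mir6236 level largely coincide in B6 and cannot be told apart for most of these genes.

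**Figure D3:**
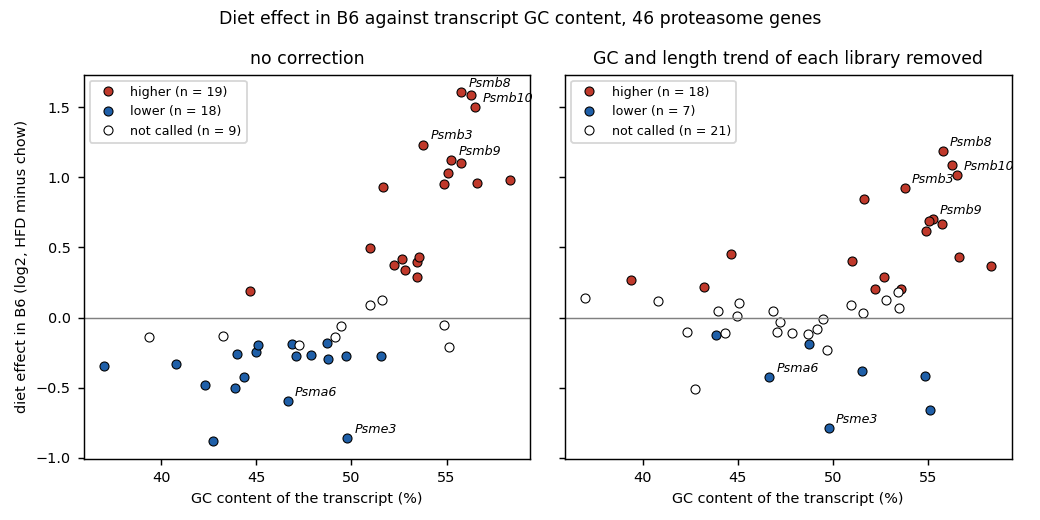
Diet effect in B6 (log2, HFD minus chow) of the 46 tested genes against the GC content of the transcript (%), without correction (left) and after correction of each library for GC content and length (right), coloured by call. The number called lower is 18 on the left and 7 on the right, and Psmb8, Psmb10, Psmb9 and Psmb3 remain among the genes called higher on both sides.

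In 129 liver the diet changed fewer of the genes on the mean over the 6 times. Of the 46 genes 6 rose and 3 fell on HFD, against 10.9% and 7.45% of all tested genes, and the median effect was 0.07 log2, against 0.04 log2 over all genes. Psmb9 had 10.34, 19.5 and 44.8 in 129 HFD and 0, 15.2 and 28.5 in 129 chow, and rose by 0.95 ± 0.24 log2 (limma adjusted p = 0.0036). Psmb8 had 40.5, 52.6 and 86.6 in 129 HFD and 9.09, 40.8 and 67.3 in 129 chow, and rose by 0.64 ± 0.16 log2 (limma adjusted p = 0.0023). Both overlapped between the diets, with 4 HFD libraries above all chow libraries for each, and both were higher on HFD at 5 of 6 times. Psmb10 had a difference of -0.02 ± 0.26 log2 (limma adjusted p = 0.97), with 16.1, 28.2 and 53.1 in 129 HFD and 10.14, 33.9 and 86.3 in 129 chow.

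The structural subunits Psmb3 and Psmb4 rose in 129 by 0.57 ± 0.13 and 0.46 ± 0.10 log2, and Psmb5, Psmb6 and Psmb7 had differences of 0.37 ± 0.19, 0.16 ± 0.14 and 0.01 ± 0.07 log2 that did not pass. These means hide a split by time for some genes. Psmb5 had 1.21 and 1.29 log2 at ZT2 and ZT6, and 0.01, 0.12, 0.08 and -0.51 log2 from ZT10 to ZT22. For Psmb6 these were 0.85 and 0.94, then -0.08, -0.09, -0.42 and -0.22 log2. Psmb4 in turn differed most at ZT22 (1.05 log2), and single times were not tested. Psmd8, a regulatory subunit, rose by 0.27 ± 0.08 log2. Of the caps, Psme3 fell by 0.41 ± 0.07 log2 and Psme1 by 0.34 ± 0.06 log2, Psme2 rose by 0.27 ± 0.09 log2, and Psme4 had -0.03 ± 0.07 log2. Psme3 had 148, 213 and 262 in 129 HFD and 213, 275 and 396 in 129 chow, with 9 HFD libraries below all chow libraries. The call of Psme2 was lost without 129 chow ZT6 replicate 1 (0.23 log2), and that of the alpha subunit Psma3 (-0.18 ± 0.06 log2) in 12 of the fits without 1 library. No gene had groups without overlap, against 0.204% of all tested genes. All 9 calls were kept with the GC and length trend removed, which called 6 genes higher and 5 lower, and with the Mir6236 level as a covariate, which called 12 higher and 4 lower.

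The difference of the diet effects between the strains was tested as an interaction, 129 minus B6. It passed for 23 of the 46 genes, 12 above and 11 below 0, against 34.4% of all tested genes. Psmb10 differed by -1.52 ± 0.37 log2 (limma adjusted p = 0.0015) and Psmb8 by -0.97 ± 0.22 log2 (limma adjusted p = 0.00085), both in the same direction at each of the 6 times, whereas Psmb9 differed by -0.17 ± 0.35 log2 (limma adjusted p = 0.73). Psmb6, Psmb3, Psmd3, Psmc3 and Psmd4, which rose in B6, also differed below 0, and of these only Psmb3 was called as rising in 129. Above 0 stood genes that fell in B6 and less or not in 129, such as Psme4 (0.47 ± 0.10 log2), Psme3 (0.44 ± 0.10 log2) and Psma6 (0.44 ± 0.10 log2). The 11 genes below 0 had a median GC content of 54.9% and the 12 above 0 one of 46.7%. With the GC and length trend removed 11 of the 23 calls were kept, among them Psmb10 (-1.10 log2), Psmb8 (-0.62 log2) and Psmb6 (-0.58 log2), and the fit called 3 genes above and 10 below 0. Over all genes that correction moved the median from 0.10 to -0.02 log2 and the calls from 2272 above and 1609 below 0 to 866 above and 1076 below. With the Mir6236 level as a covariate all 23 calls were lost. Diet and Mir6236 level largely coincide in B6, so that fit cannot separate them.

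The strains were compared next, as 129 minus B6 on each diet. These contrasts share their libraries with the diet effects. On HFD the immunoproteasome genes were lower in 129, all 3 at all 6 times, by 1.19 ± 0.16 log2 for Psmb8, 1.07 ± 0.26 for Psmb10 and 0.90 ± 0.24 for Psmb9 (limma adjusted p = 1.2e-08, 0.00091 and 0.0029). Of the 18 129 HFD libraries, 14 for Psmb8, 15 for Psmb10 and 11 for Psmb9 lay below every B6 HFD library, and no gene had groups without overlap, against 1.83% of all tested genes. Psmb5 was lower by 1.25 ± 0.19 log2, with 47.3, 74.4 and 96.4 in 129 HFD and 58.6, 178 and 304 in B6 HFD, and 2 of the 129 HFD libraries lay below all B6 HFD libraries. Psmb6 was lower by 0.43 ± 0.14 and Psmb1 by 0.15 ± 0.06 log2, while Psmb7 had a difference of -0.02 ± 0.07 log2. The call of Psmb1 was lost in 8 of the fits without 1 library. Of the interferon-inducible caps Psme1 was lower by 0.58 ± 0.06 and Psme2 by 0.38 ± 0.09 log2, and Psme3 was higher by 0.57 ± 0.07 log2 in 129.

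In all, 6 genes were higher and 14 lower in 129 HFD than in B6 HFD, against 19.0% and 13.3% of all tested genes, with a median of -0.11 log2 over the 46 and 0.05 log2 over all genes. The other higher ones were Psma8 (1.55 ± 0.36 log2, medians of 15.1 in 129 HFD and 3.70 in B6 HFD), Psmc2 (0.52), Psmd7 (0.43), Psmd11 (0.35) and Psmd1 (0.16 log2). With the GC and length trend removed 17 of the 20 calls were kept, and with the Mir6236 level as a covariate 14 were, Psmb8, Psmb9 and Psmb5 under both. The covariate ended the calls of Psmb10 (-0.41 log2, limma adjusted p = 0.285), Psme2 (-0.26 log2, limma adjusted p = 0.0524), Psmb1 and Psma2, and those of Psmb6 and Psmd4, whose differences turned to 0.06 and 0.07 log2.

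On chow 10 genes were higher and 20 lower in 129, against 25.4% and 27.5% of all tested genes. Only 8 of these 30 calls had the same sign at all 6 times, so most are means over times that differ. Psma1 had 0.33 log2 at ZT2 and -0.72 log2 at ZT18, and Psmg3 had 2.21 log2 at ZT18 and -0.83 log2 at ZT22. The 129 chow libraries with high Mir6236 were all from ZT14 to ZT22. Psmb9 was lower by 0.73 ± 0.24 log2 (limma adjusted p = 0.011), while Psmb8 had -0.22 ± 0.16 log2 (limma adjusted p = 0.24) and Psmb10 0.45 ± 0.26 log2 (limma adjusted p = 0.14). Psmb5 was lower in 129 on chow too, by 0.66 ± 0.19 log2, with 9.37, 64.0 and 139 in 129 chow and 29.8, 84.4 and 215 in B6 chow. Psmb7 was lower by 0.20 log2, and Psmb6, Psmb3 and Psmb2 were higher by 0.51, 0.38 and 0.30 log2. No gene had groups without overlap, against 1.23% of all tested genes. Of the alpha subunits 6 were lower, from -0.41 log2 for Psma2 to -0.27 log2 for Psma5, and Psma7 was higher by 0.55 log2. The largest differences upward were those of Psmd3 (1.11 ± 0.20 log2), the chaperone Psmg3 (0.85 ± 0.31 log2) and the ATPase Psmc3 (0.59 ± 0.12 log2). Of the caps, Psme4, Psme2 and Psme1 were lower by 0.42, 0.31 and 0.29 log2, and Psme3 had 0.13 ± 0.07 log2. With the GC and length trend removed 15 of the 30 calls were kept and Psmc6 changed sides, at 0.22 log2 with the correction and -0.33 log2 without it. The correction called 11 genes higher and 10 lower, and over all genes 2662 higher and 1830 lower, against 2872 and 3104 without it. Psmb8 passed as lower in 129 with the GC correction (-0.51 log2) and with the Mir6236 level as a covariate (-0.67 log2). With the Mir6236 level as a covariate 10 calls were kept, all of them lower, and Psmb9 had -0.88 log2 without passing (limma adjusted p = 0.0879). Under that covariate none of the 10 genes higher in 129 kept the call, and Psmb6, Psmb3 and Psmb2 had -0.14, -0.12 and -0.12 log2. Calls of Psmb5, Psme1, Psme2 and Psma5 were kept under both.

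Genes that work with the proteasome were followed in 2 lists, chosen like the other lists with earlier results of these data known. Of 28 partners and ubiquitin genes, 9 rose and 14 fell on HFD in B6, with a median of -0.14 log2, against 27.5% and 32.7% of all tested genes. After the GC correction 9 rose and 6 fell, and with the Mir6236 covariate 0 rose and 2 fell. Nfe2l1, the factor that induces proteasome genes when the proteasome is impaired, rose by 0.62 ± 0.10, and the polyubiquitin gene Ubb by 0.54 ± 0.14 log2. The deubiquitinases Uchl5 and Usp14 fell by 0.82 ± 0.11 and 0.73 ± 0.08 log2, and the ubiquilins Ubqln2 and Ubqln4 by 0.62 ± 0.27 and 0.57 ± 0.09 log2. In 129 5 rose and 6 fell, against 10.9% and 7.45% of all genes, with a median of 0.10 log2, and Ubb (0.68 ± 0.14) and Nfe2l1 (0.28 ± 0.10 log2) were among those that rose. Ubqln2 (-0.88), Adrm1, a ubiquitin receptor (-0.43), Uchl5 (-0.42) and Ubqln4 (-0.33 log2) fell in 129. Between the strains 7 were higher and 12 lower in 129 on chow (25.4% and 27.5% of all genes), and 7 higher and 3 lower on HFD (19.0% and 13.3%).

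Of 15 genes of MHC class I antigen presentation, which uses peptides cut by the proteasome, 9 rose and 3 fell on HFD in B6, against 27.5% and 32.7% of all tested genes, with a median of 0.67 log2 against -0.06 log2 over all genes. After the GC correction 10 rose and 2 fell, and with the Mir6236 covariate 4 rose and 1 fell. The largest rises were those of H2-T23 (1.61 ± 0.12 log2), Tap2 (1.47 ± 0.22 log2), H2-D1 (1.21 ± 0.11 log2) and Tap1 (1.01 ± 0.14 log2), the Tap genes encoding the peptide transporter. Tap1 had 51.2, 83.6 and 185 in B6 HFD and 22.9, 40.8 and 87.0 in B6 chow. Pdia3 and Canx, folding factors of the endoplasmic reticulum, fell by 0.67 and 0.44 on the log2 scale, and B2m fell by 0.26. In 129 6 rose and none fell, against 10.9% and 7.45% of all genes, with a median of 0.26 log2, and Nlrc5, the transactivator of class I genes, rose by 0.58 ± 0.14 log2 there. On HFD 9 of the 15 were lower and 1 was higher in 129 than in B6, against 13.3% and 19.0% of all genes, with Nlrc5 at -1.20 ± 0.14 and H2-T23 at -0.998 ± 0.12 log2. On chow 6 were lower and 1 was higher in 129, against 27.5% and 25.4%, with Nlrc5 at -1.12 ± 0.14 and Tap2 at 1.09 ± 0.22 log2.

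Some markers of other liver cells moved in the same contrasts, and others did not. Of 11 Kupffer cell and macrophage markers, 7 rose and none fell on HFD in B6, and 6 rose and none fell in 129, against 27.5% and 10.9% of all genes that rose in the 2 strains. After the GC correction 6 rose in B6 and 6 in 129, and with the Mir6236 level as a covariate 0 rose in B6 and 7 in 129. Their summed level had a lowest, median and highest value of 1220.2, 2089 and 5929.9 in B6 HFD and 831, 1418 and 2121 in B6 chow, and of 921, 1335 and 2134 in 129 HFD and 635, 924 and 2559 in 129 chow. The highest value in B6 HFD was that of ZT22 replicate 3 alone, with the next at 3457. In 129 chow it was that of ZT18 replicate 3 alone, with the next at 1011, and Psmb10 was at 86.3 in that library. In 129 8 of them were lower and none higher than in B6 on HFD, and 7 lower and none higher on chow, against 13.3% and 27.5% of all genes that were lower. Of 13 lymphocyte markers only Ptprc passed the filter, and Cd3e, Cd3d, Cd8a, Cd79a, Gzma and Klrb1c had a median of 0 in 129 chow. Summed lymphocyte markers had medians of 162 in B6 HFD and 146 in B6 chow, and of 85.6 in 129 HFD and 71.9 in 129 chow. Of 7 tested stellate cell markers 6 rose on HFD in B6, 6 after the GC correction and 3 with the covariate. In 129 liver 2 of them rose and 1 fell. Against B6, 5 were lower in 129 on HFD, and on chow 2 were higher and 2 lower. Of 6 sinusoidal endothelial markers 4 rose in B6, 4 after the GC correction and 0 with the covariate. In 129 liver 2 of these rose and 1 fell. None of the 3 tested neutrophil markers was called in any diet or strain contrast. Of 10 hepatocyte markers 3 rose and 4 fell in B6. On each diet 5 of them were higher in 129 than in B6, against 25.4% of all genes on chow and 19.0% on HFD. On chow 1 was lower in 129, and on HFD none was. The summed level of hepatocyte markers had a lowest, median and highest value of 330959, 443652 and 1526310 in B6 HFD and 1086450, 1396510 and 1466130 in B6 chow. The part of these cells in the immunoproteasome differences was not tested. In whole liver, more cells of a type and more RNA per cell cannot be told apart.

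Time of day was tested with a cosine of 24 h in each set. In 129 chow 30 of the 46 genes had a rhythm, against 47.8% of all tested genes. Of these 20 peaked between 0.1 and 8.2 h, among them 7 alpha subunits, and 10 peaked between 12.5 and 20.05 h, among them Psmb8, Psmb5 and Psmb6. Psmd14, the deubiquitinase of the regulatory particle, had levels of 527, 494 and 536 at ZT2, 507, 444 and 364 at ZT6, 277, 248 and 303 at ZT10, 306, 196 and 264 at ZT14, 308, 213 and 263 at ZT18 and 323, 267 and 264 at ZT22 in 129 chow. It was high at ZT2 and ZT6 and had no overlap between these and the later times, with an amplitude of 0.52 log2 and a peak at 3.5 h (limma adjusted p = 2.3e-07). Psmb8 had the opposite course, with 9.09 to 24.6 at ZT2 and 50.5 to 61.0 at ZT18, an amplitude of 0.68 log2 and a peak at 16.3 h (limma adjusted p = 0.0047). Calls near the threshold depended on single libraries, and that of Psmb5 was lost in 44 of 72 single-library fits and that of Psmb6 without 129 chow ZT6 replicate 1 (limma adjusted p = 0.074).

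The genes with an early peak had a median GC content of 45.8% and those with a late peak one of 55.4%, and the 8 libraries with high Mir6236 in 129 chow were all from ZT14 to ZT22. With the GC and length trend removed 17 of the 30 calls were kept, and those of Psmb8 and Psmb5 were lost. With the Mir6236 level as a covariate, which also ended the call of Psmb8, 7 were kept: Psma1, Psmb4, Psmd1, Psmd9, Psmd11, Psmd14 and Psme3. In 129 chow Mir6236 and time largely coincide and cannot be told apart for the other genes.

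In the remaining wild-type sets few genes passed. In 129 HFD there were 5 (7.05% of all genes). There were 26 when that set was fitted alone, a fit whose share of all genes is not given here. Psmd11, a scaffold subunit of the regulatory particle, had 502 to 562 at ZT2, 429 to 479 at ZT6, 334 to 388 at ZT10, 304 to 424 at ZT14, 465 to 527 at ZT18 and 518 to 660.3 at ZT22, an amplitude of 0.37 log2 with a peak at 23.2 h (limma adjusted p = 0.0033). Psmd1 peaked at 23.9 h (0.31 log2, limma adjusted p = 2.7e-05) and Psma1 at 2.6 h (0.30 log2, limma adjusted p = 0.0072). Psma2 and Psmd5 (0.26 log2 each) lost their calls in 12 and 11 of the fits without 1 library. The count was then 3, for example without any 1 of the 3 ZT2 libraries of 129 HFD. In B6 chow 2 passed (6.15% of all genes), Psmd11 with 0.43 log2 and a peak at 4.3 h and Psmd9 with 0.45 log2 and a peak at 16.6 h. A further test found 13 that differed in some way between times, and its share of all genes is not given here either. In B6 HFD none passed (4.08% of all genes) in limma, with 9 at an unadjusted p below 0.05, and the cosine did not differ between diets for any of the 46 genes in B6 (0.0532% of all genes) or in 129 (1.26% of all genes), where 4 and 13 had an unadjusted p below 0.05.

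**Figure D4:**
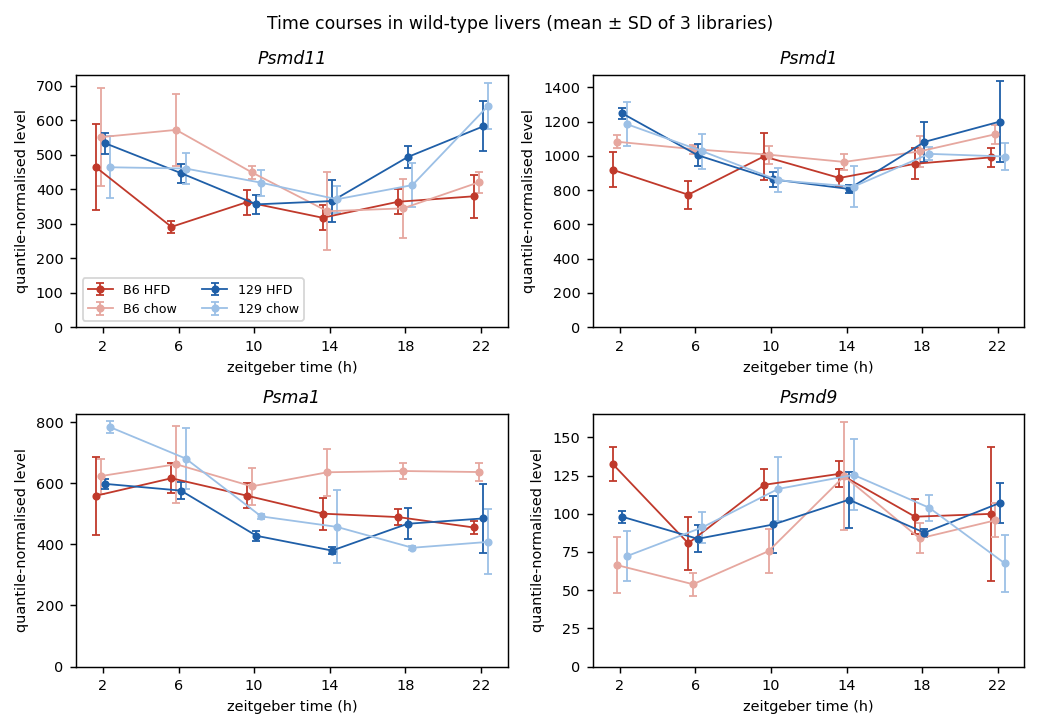
Quantile-normalised levels of Psmd11, Psmd1, Psma1 and Psmd9 by zeitgeber time (h) in the 4 wild-type sets, as the mean ± SD of 3 libraries, with sets offset sideways. Psmd11 in 129 HFD is lowest at ZT10 and ZT14 and highest at ZT22, and Psmd9 in B6 chow is highest at ZT14.

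Errg-Cre and Esrrg LKO were each fitted in their own table, which was normalised on its own, so their levels were not tested against each other or against wild type. Esrrg itself had a lowest, median and highest level of 7.64, 16.4 and 39.4 in the libraries labelled Esrrg LKO and of 8.23, 25.9 and 62.0 in Errg-Cre, and in the wild-type table medians of 29.4 in B6 HFD, 26.0 in 129 HFD, 16.5 in B6 chow and 20.04 in 129 chow. These ranges overlap and the tables are normalised apart, so the level does not check the knockout label, and the sources used here do not say which exons were deleted. The columns of the Esrrg LKO set carry the name ErrgCre in the file header and were assigned through the table that the labels name. In Errg-Cre 9 of the 48 genes had a rhythm, against 17.8% of all 11621 genes. Psmb10 had the largest amplitude, 0.68 log2 with a peak at 11.2 h (limma adjusted p = 0.013), and levels of 36.0, 31.6 and 57.4 at ZT2, 112, 90.6 and 53.0 at ZT6, 92.1, 146 and 79.4 at ZT10, 112, 102 and 132 at ZT14, 47.4, 33.6 and 69.3 at ZT18 and 80.0, 44.6 and 51.9 at ZT22. Psmb9 had 0.59 log2 with a peak at 8.3 h (limma adjusted p = 0.0096), and its ZT18 levels of 16.1, 22.9 and 18.21 were below those of all other times. The other 7 were Psmd14, Psmd11, Psmb5, Psmd1, Psme2, Psmc6 and Psmd6, with amplitudes of 0.16 to 0.28 log2. A fit with the GC and length trend removed, added after seeing the data, kept 5 of the 9 calls. These were Psmb10, Psmb9, Psmd1, Psmd11 and Psmd14, while Psmb5, Psme2, Psmc6 and Psmd6 lost theirs.

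Without ZT6 and ZT10 replicate 3, in which the clock genes went against the labelled time, 7 of the 9 calls were kept, with 0.77 log2 for Psmb10 and 0.69 log2 for Psmb9, and those of Psmb5 and Psmd6 were lost. In single-library fits the count ranged from 5 to 14, with 5 without ZT10 replicate 2, ZT14 replicate 1 or ZT14 replicate 3 and 14 without ZT22 replicate 1. The calls of Psmb5, Psmd6, Psmd11 and Psme2 were lost in 15, 12, 8 and 4 of these 18 fits and that of Psmc6 without ZT10 replicate 2, and those of Psmb10 and Psmb9 were kept in all 18. In Esrrg LKO only Psma5 had a rhythm (6.09% of all 11945 genes), with 101 to 135 at ZT14 and 165 to 187 at ZT2 and an amplitude of 0.24 log2 (limma adjusted p = 0.04), and the call was lost in 14 of its single-library fits, among them the fit without ZT14 replicate 1, the library with the high Kupffer and neutrophil sums (limma adjusted p = 0.075). In Esrrg LKO Psmb8 had 137, 210.4 and 314, Psmb9 43.1, 68.4 and 94.5 and Psmb10 85.8, 128 and 159, and in Errg-Cre these were 66.9, 93.5 and 146, 16.1, 33.4 and 64.5, and 31.6, 74.3 and 146. Summed Kupffer cell and macrophage markers had medians of 3722 in Esrrg LKO and 1873 in Errg-Cre. Table, strain label and title all differ between the 2 sets and cannot be told apart.

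**Figure D5:**
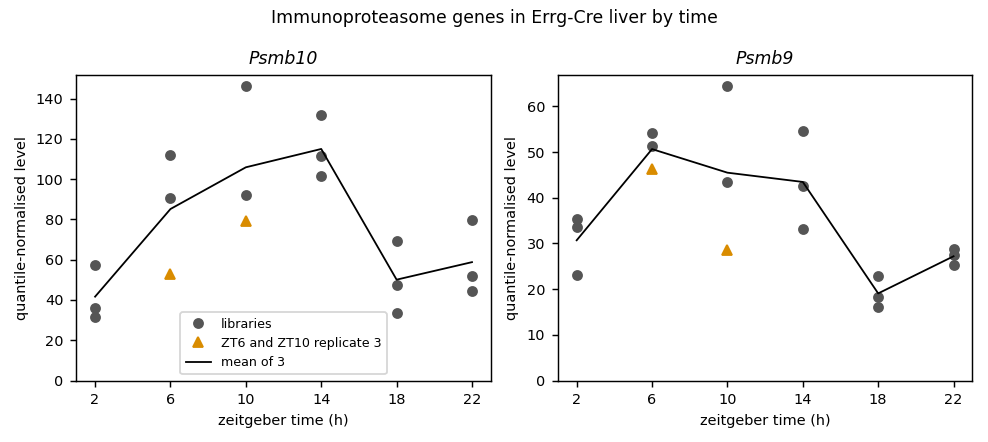
Quantile-normalised levels of Psmb10 and Psmb9 in the 18 Errg-Cre libraries by zeitgeber time (h), with the mean of 3 as a line and the libraries ZT6 and ZT10 replicate 3 as triangles. Psmb10 is highest from ZT6 to ZT14, and Psmb9 is lowest at ZT18.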

How the data were processed

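RNA-seq of male mouse liver gave 108 labelled libraries. The signal in the deposited tables is a read number per RefSeq transcript after quantile normalisation by the authors. STAR, HOMER and mm10 are named without versions, per the submitters' processing notes. Sorted values were identical among the libraries of each of the 3 tables. Depth is therefore unknown, intervals for counting error are not given, and a shift common to most genes is removed. A further 18 columns of the Errg-Cre table, named ErrgGFP in the header, match no labelled sample and were not used, so no other set of that table stands beside Errg-Cre here.

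Values were tested as log2(value + 1), so fold changes of low genes are understated. Genes with a mean of at least 10 were kept and the transcript with the highest mean stood for a symbol. Tests used linear models from limma (version 3.58.1, R 4.3.3; trended eBayes, Benjamini-Hochberg adjustment over all genes, threshold 0.05). The wild-type fit had 24 group means, and contrasts were averaged over the 6 times. Rhythms were a cosine with a period of 24 h, tested by limma's moderated F test on 2 degrees of freedom, jointly for the 4 wild-type sets. Transcript GC content came from GENCODE transcript sequences on GRCm38, with values for 99.5% of the tested genes. The GC correction removed a trend with linear and squared terms of GC content and log length from each library. Alternatives covered the pseudocount, the filter, the replicate number as a block, the GC correction, the Mir6236 level as a covariate and left-out libraries. The procedures were tested on simulated data. Figures and summaries used Python with pandas.

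The genes named are Psmb5 to Psmb10 and Psme1 to Psme4, up to 4 genes past the threshold with the largest change per role, direction and contrast, up to 10 with the largest rhythm amplitude per set, genes that failed the filter, and up to 4 partner and antigen presentation genes per direction and contrast. A few others were named after their values were seen. The members, lists and role groups were chosen with earlier results of these data known. Some genes that this rule names are not reported here.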

Additional observations from a re-analysis of the deposited data

Results flagged for a closer look

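The effect of the diet differed between the strains, by the test of the difference itself (limma, adjusted p below 0.05 over all genes), for 23 of the 46 proteasome genes, against 34.4% of all tested genes. Each value is the diet effect in 129 minus the diet effect in B6, on the log2 scale. Among the catalytic genes it was -1.52 for Psmb10, -0.97 for Psmb8 and -0.94 for Psmb6, and among the other beta subunits -0.66 for Psmb3 and -0.47 for Psmb2. Among the alpha subunits it was -0.61 for Psma7, 0.44 for Psma6 and 0.24 for Psma2. The ATPases Psmc3 and Psmc2 had -0.89 and 0.35. Of the other regulatory subunits, Psmd3 had -0.96, Psmd4 -0.78, Psmd6 0.37, Psmd12 0.36, Psmd11 0.27 and Psmd1 0.25. The chaperones Psmd10, Psmg1, Psmd5 and Psmd9 had 0.55, 0.52, 0.23 and -0.37, and the caps Psme4, Psme3 and Psme1 had 0.47, 0.44 and -0.29. In fits that each left out 1 library, the calls of Psmd5, Psmd11, Psma2 and Psmd10 were lost in 29, 24, 15 and 4 of 72. With the Mir6236 level as a covariate 0 of the 23 calls were kept.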

How the results depend on the processing

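The pseudocount of 10 lost 1 of 166 gene calls, no filter on low values 23, leaving out the 3 libraries with most low values 5 of 156, and leaving out B6 HFD ZT22 replicate 3, chosen after seeing the data, 2 of 156. None of these reversed a direction. Where a count moved by over 1.5 times the cause was not tested. No filter gave 3 rhythms in 129 HFD and 0 in Esrrg LKO, and leaving out the 3 libraries gave 1 in B6 HFD. Fits within a set gave 1 in B6 chow and 26 in 129 HFD, and a test of any difference between times 13 in B6 chow, 3 in B6 HFD and, added after seeing the data, 0 in Esrrg LKO.

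With the GC and length trend removed 18 genes rose and 7 fell in B6, 5 fell in 129, 10 were lower in 129 on chow and 3 interactions were above 0, with 1 rhythm in B6 HFD and, added after seeing the data, 2 in Esrrg LKO. Of 166 calls 51 were lost and 13 turned. The B6 diet effect became 0.047 for Psma1, 0.12 for Psma3, 0.0094 for Psma4, 0.14 for Psmc6, 0.0498 for Psmd1 and 0.10 for Psmd5. The strain effect on chow became 0.045 for Psma1, 0.085 for Psma2, 0.071 for Psma3, 0.22 for Psmc6 and 0.074 for Psmd12, and the interaction -0.17 for Psma2 and -0.083 for Psmd5, all log2.

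The replicate numbers were not shown to pair the samples, since same-numbered libraries had median correlations of -0.03 to 0.04 over 18 pairs per contrast and only 1 to 5 of 18 were above 0.1. The replicate block lost 3 of 166 calls and gave 0 rhythms in Esrrg LKO, with the other counts within 1.5 times. The block together with the GC correction gave 6 genes lower in B6, 5 in 129 and 10 in the strain effect on chow, 3 interactions above 0, 1 rhythm in B6 HFD and 2 in Esrrg LKO, and the same 13 turned values.

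With the Mir6236 level as a covariate 1 gene rose and 3 fell in B6, 12 rose in 129, 0 were higher and 11 lower in 129 on chow, 0 interactions passed either way and, added after seeing the data, 9 rhythms passed in 129 chow. Of 156 calls 77 were lost and 29 turned. The B6 diet effect became -0.14 for Psmb2, -0.086 for Psmc4, 0.17 for Psmd10, -0.028 for Psmd13, -0.22 for Psmd3, 0.029 for Psmd5 and 0.18 for Psmg1. The strain effect on chow became -0.016 for Psma7, -0.12 for Psmb2, -0.12 for Psmb3, -0.14 for Psmb6, -0.13 for Psmc5, -0.17 for Psmd4, 0.027 for Psmg1 and -0.042 for Psmg3, and that on HFD 0.062 for Psmb6 and 0.074 for Psmd4. The interaction became 0.38 for Psma7, 0.014 for Psmb10, 0.28 for Psmb2, 0.21 for Psmb3, 0.20 for Psmb6, 0.093 for Psmc3, -0.21 for Psmd10, 0.44 for Psmd3, 0.24 for Psmd4, -0.034 for Psmd5, -0.061 for Psme4 and -0.011 for Psmg1, all log2.

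Leaving out each library in turn gave 19 to 19 genes higher and 16 to 21 lower in B6, 5 to 9 and 2 to 4 in 129, 8 to 11 and 19 to 21 for the strain on chow, 6 to 8 and 11 to 17 for the strain on HFD, and 9 to 14 and 11 to 12 for the interaction. Rhythms numbered 2 to 2 in B6 chow, 0 to 1 in B6 HFD, 24 to 32 in 129 chow, 3 to 7 in 129 HFD, 5 to 14 in Errg-Cre and 0 to 2 in Esrrg LKO, and rhythm changes with diet 0 to 0 in B6 and 0 to 2 in 129, the last without 129 chow ZT6 replicate 3. Depth is unknown, so low levels such as those of Psma8 and Psmg3 carry an unknown counting error.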
